A study of Mus musculus with 4 samples.

Results

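The Bcl2 family of survival and death genes was measured here through the probe sets whose array annotation names 1 family gene alone. The genes asked for were Bcl2, Bcl2l1, Bcl2l2, Mcl1, Bax, Bak1, Bad, Bid, Bcl2l11 and Bmf. This gave 34 of the 45037 probe sets tested, for 9 of the 10 genes, out of 18193 genes in all. Bax is not analysed here, since the annotation used pairs it with no probe set. The samples were 2 of Cilia-deleted and 2 of Control chondrocytes from the proliferative zone, where growth plate cells divide, taken from hindlimbs of mice on postnatal day 7. Cilia-deleted mice were Col2aCre;Ift88fl/fl, in which the Cre recombinase is driven by sequences of the type II collagen gene and removes Ift88, a gene of the machinery that builds the primary cilium. Control mice were labelled wild-type, and whether they carried Cre or floxed alleles is not given in the sources used here. All 4 samples were C57BL/6 and are described as biological replicates, and how many animals went into a sample is not given in the sources used here.

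Proteins of the Bcl2 family decide at the outer mitochondrial membrane whether a cell starts the mitochondrial route of apoptosis. Bcl2, Bcl-xL (from Bcl2l1), Bcl-w (from Bcl2l2) and Mcl1 hold the pore-forming proteins Bax and Bak in check, while BH3-only proteins such as Bad, Bid, Bim (from Bcl2l11) and Bmf sense stress and oppose the survival proteins. In growth plate cartilage of mice, Bcl2 lies downstream of parathyroid hormone-related protein, and its loss speeds the maturation of chondrocytes. In human skin cells GLI transcription factors of the Hedgehog pathway, which signals through the cilium, activate BCL2.

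Values are on a log2 scale with the median of each probe set over the arrays subtracted, so they give differences between arrays and no levels. By this centring the middle 2 values of a probe set mirror each other around 0. A coarse class of brightness could still be read from the number steps of the values, which places the lowest value before centring at 8 or more, at 4 to 8, or at 2 to 4. Of the probe sets in the brightest class, 16% also fell on the next coarser step, so a share of them may belong to the class below. Col2a1 and Acan, the main collagen and proteoglycan of cartilage, and Sox9, the chondrocyte transcription factor, were each in the brightest class with at least 1 probe set. Whether markers of other cell types were absent cannot be read from centred values.

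Several facts of the arrays hold beside every result. Xist, the RNA of the inactive X chromosome, was at -3.79 and -3.61 in the Cilia-deleted arrays, against 3.58 and 3.74 in the Control arrays. The Y-linked genes Eif2s3y, Uty and Kdm5d had groups apart in the opposite direction, so that sex by these genes and genotype cannot be told apart. Control 1 stood farthest from the others on the first principal component (score 53.9, with -16.8 and -36.6 in the Cilia-deleted arrays and -0.58 in Control 2). The single Ift88 probe set had a difference of 0.08 (unadjusted 95% interval -0.30 to 0.46), and since its place among the exons was not analysed here, it does not check the deletion. Of the 5 pairs of 3′ and 5′ control probe sets, those of 18S RNA and beta-actin had a lower 3′ minus 5′ difference with groups apart (-0.23 and -0.15, Cilia-deleted minus Control). The part of RNA quality in the results was not tested.

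Bcl2, the survival gene that gives the family its name (chromosome 1, 106538176 to 106714290, GRCm38.p6), had lower values in both Cilia-deleted arrays at each of its 5 probe sets. As the mean over probe sets it was at -0.61 in Cilia-deleted 1 and -0.42 in Cilia-deleted 2, against 0.74 in Control 1 and 0.49 in Control 2. The groups stood well apart, with a gap larger than the distance between the arrays of either group. The difference, Cilia-deleted minus Control, was -1.14 (SE 0.153, 95% interval -1.51 to -0.76, n = 2 per group), or 2.20-fold lower. In limma's moderated test this did not pass the threshold of 0.05 over all 18193 genes (adjusted p = 0.213), and by its unadjusted p of 0.000357 Bcl2 stood at rank 29. In such dissected tissue, fewer cells of a type and less RNA per cell cannot be told apart.

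The promoter of Bcl2 is shown because Bcl2 is the member on which the comparison turns, and that of Mcl1, whose difference was near 0, is set beside it. Both are the 250 bases before a RefSeq transcription start (GRCm38.p6), 5′ to 3′ on the gene's own strand, at chr1:106714291-106714540 on the minus strand for Bcl2 and chr3:95658471-95658720 on the plus strand for Mcl1. The Bcl2 window adjoins the span of its gene, while the Mcl1 window lies inside the span of its gene, which begins at 95656944. Capitals mark GC boxes, searched as GGGCGG and, for the other strand, CCGCCC.
Bcl2: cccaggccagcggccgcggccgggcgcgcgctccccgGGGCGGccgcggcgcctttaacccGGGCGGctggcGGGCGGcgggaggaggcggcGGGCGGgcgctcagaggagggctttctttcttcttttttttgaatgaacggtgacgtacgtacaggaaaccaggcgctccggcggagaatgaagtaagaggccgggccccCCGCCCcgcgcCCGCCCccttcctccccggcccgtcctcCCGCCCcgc
Mcl1: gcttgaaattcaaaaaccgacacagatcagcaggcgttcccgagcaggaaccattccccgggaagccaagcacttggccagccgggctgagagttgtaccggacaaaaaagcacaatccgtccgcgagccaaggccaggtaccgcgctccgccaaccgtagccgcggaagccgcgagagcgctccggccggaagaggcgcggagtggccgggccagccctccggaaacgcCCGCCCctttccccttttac
The Bcl2 window holds 7 GC boxes, 4 on the strand shown and 3 on the other, and the Mcl1 window holds 1. Among the other family genes the most in a window was 3, for Bad, Bid and Bcl2l11. Bax had 2, Bcl2l2 had 1, and Bcl2l1, Bak1 and Bmf had 0. Of 32851 RefSeq promoter windows of the same length, 32.7% hold at least 1 and 0.411% at least 7, a cut equal to the count of Bcl2 itself. The GLI word GACCACCCA, searched on both strands, is in 0.225% of all windows and in none of the 16 windows of the 10 family genes. The TATA word TATAAA, likewise searched on both strands, is in 12.4% of all windows and in none of these 16. These matches describe letters and show no binding, and the words searched do not overlap each other.

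The probe sets of Bcl2 agreed in direction and varied in size. The brightest, 1443837_x_at, was at -0.77 and -0.80 in the Cilia-deleted arrays, against 0.77 and 0.87 in the Control arrays. Its difference was -1.60 (SE 0.138, 95% interval -1.95 to -1.25), 3.03-fold lower, with an adjusted p of 0.0864 over all 45037 probe sets (limma) and rank 25 by unadjusted p. This was the largest difference and the tightest agreement within groups among the 5, in a probe set whose suffix marks probes that may also match other transcripts. Probe set 1440770_at was at -0.83 and -0.48 in the Cilia-deleted arrays, against 1.11 and 0.48 in the Control arrays, a difference of -1.45 (SE 0.255). Probe set 1457687_at was at -0.43 and -0.34 in the Cilia-deleted arrays, against 1.09 and 0.34 in the Control arrays, a difference of -1.10 (SE 0.265). In both, Control 1 was far above Control 2, and without Control replicate 1 the difference of 1457687_at came to -0.72. Probe set 1437122_at was at -0.60 and -0.34 in the Cilia-deleted arrays, against 0.62 and 0.34 in the Control arrays, a difference of -0.95 (SE 0.179). Probe set 1422938_at, with the smallest difference, was at -0.44 and -0.14 in the Cilia-deleted arrays, against 0.14 and 0.43 in the Control arrays, a difference of -0.58 (SE 0.183). Cilia-deleted 1 was the lowest array in 4 of the 5 probe sets, and the highest array was Control 1 in 3 and Control 2 in 2.

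**Figure D1:**
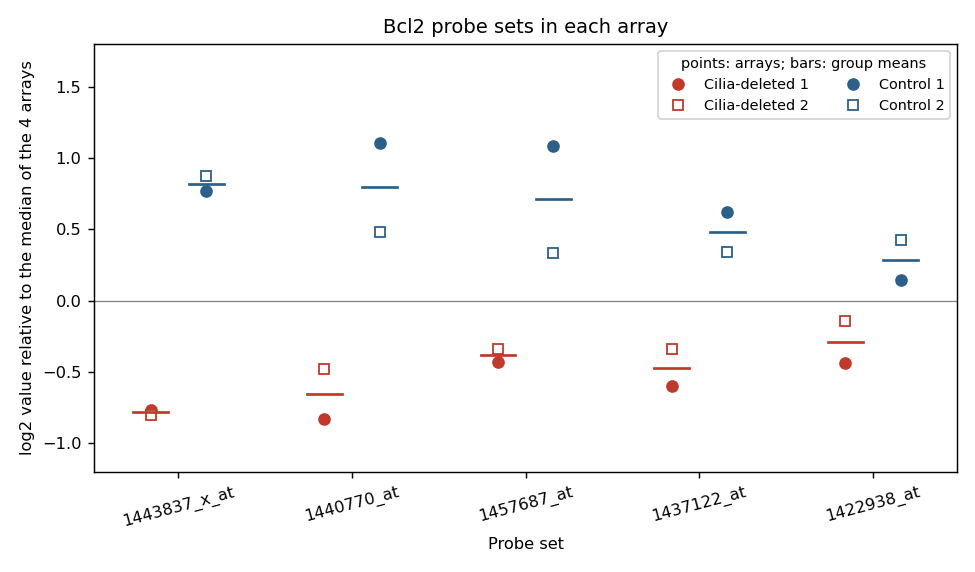
Log2 value of each Bcl2 probe set (x axis) relative to the median of the 4 arrays (y axis), with a point per array and a bar at each group mean, ordered by size of difference. All Cilia-deleted points lie below 0 and all Control points above 0 in each of the 5 probe sets, from a difference of -1.60 on the left to -0.58 on the right.

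None of the 34 family probe sets passed the threshold in limma, where 0.0444% of all probe sets did. At an unadjusted p under 0.05, 6 of the 34 were lower and 0 higher, beside 3.18% lower and 3% higher among all probe sets. The 6 were the 5 of Bcl2, which share a gene and are not independent, and 1 of Bmf. Groups stood apart in the lower direction in 10 and in the higher direction in 3, beside 17.4% and 16.2% of all probe sets. With Bcl2 left out these counts were 5 lower and 3 higher of 29. The median difference of the 34 was -0.05, and that of all probe sets was 0.00. By gene, 0 of 9 passed, where 0.011% of all genes did, and 1 was lower at an unadjusted p under 0.05, and 0 higher, beside 3.68% and 2.29% of all genes. Groups were apart and lower for 3 genes, Bcl2, Bak1 and Bmf, beside 18.6% of all genes, and apart and higher for 0, beside 14.7%. A count made after these values were seen asked how often every probe set of a gene is lower with groups apart. Of 856 genes with at least 5 probe sets this held for 4 (0.467%), which were Bcl2, Dnpep, Fmod and Samhd1, and the same in the higher direction held for 2 (0.234%), Ccnd2 and Wdfy3.

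**Figure D2:**
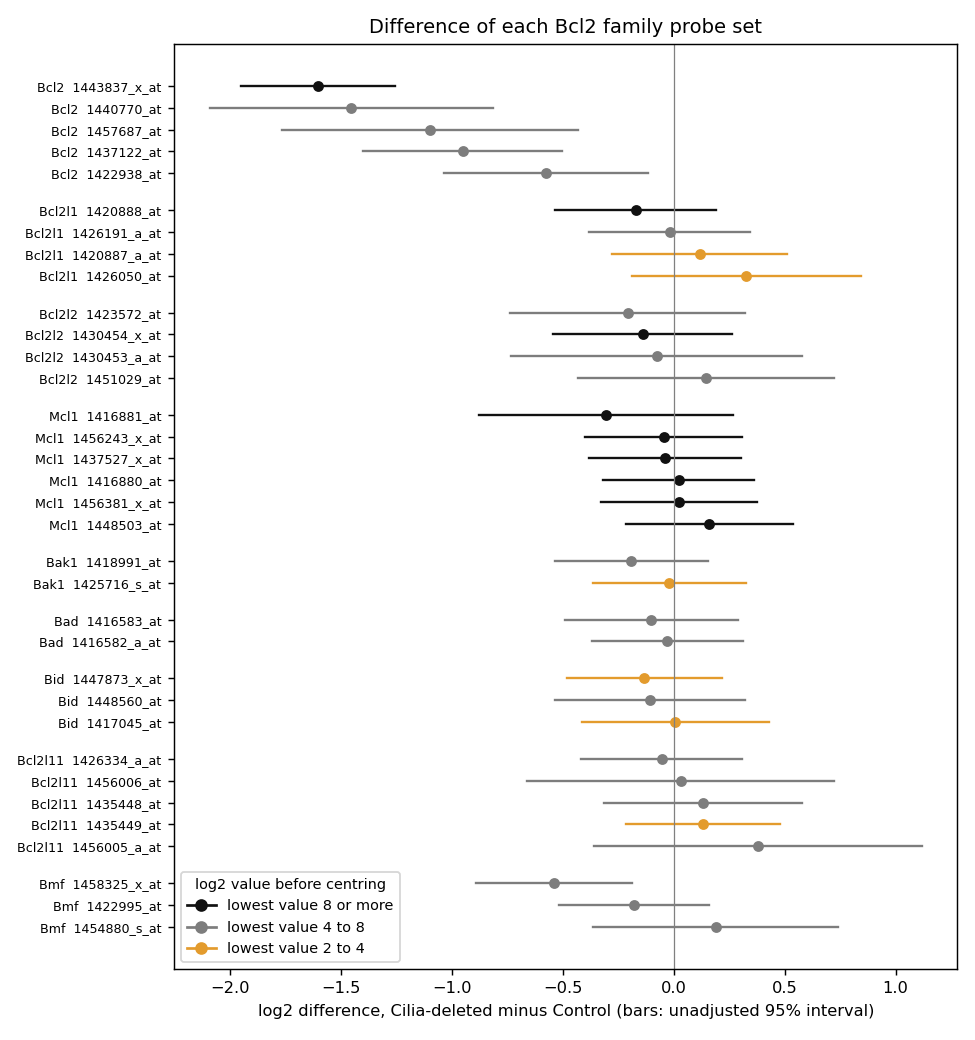
Log2 difference (x axis, Cilia-deleted minus Control) of each of the 34 probe sets, grouped by gene down the page, with the unadjusted 95% interval as a bar and the brightness class as colour. The intervals of the 5 Bcl2 probe sets and of 1 Bmf probe set lie below 0, and the other 28 hold 0.

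The other survival genes had small differences with intervals on both sides of 0. Mcl1, a short-lived survival protein (chromosome 3, 95656944 to 95663179), had all 6 probe sets in the brightest class, which held for no other member. As a gene it was at 0.06 and -0.05 in the Cilia-deleted arrays, against 0.04 and 0.03 in the Control arrays. Its difference was -0.03 (SE 0.126, 95% interval -0.34 to 0.28), so a change as large as that measured for Bcl2 lies outside the interval. Within Mcl1, 1416881_at had the lowest difference (-0.31), with Control 1 at 0.49 and the other arrays between -0.23 and 0.05, and it came to -0.04 without Control replicate 1. The highest, 1448503_at, was at 0.18 and 0.0049 in the Cilia-deleted arrays, against -0.13 and -0.0049 in the Control arrays, a difference of 0.16.

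Bcl2l1, which gives the survival protein Bcl-xL and by splicing the death-promoting Bcl-xS (chromosome 2, 152758732 to 152833803), was at -0.01 and 0.13 in the Cilia-deleted arrays, against -0.02 and 0.02 in the Control arrays. Its difference was 0.06 (SE 0.129, 95% interval -0.25 to 0.38), and its 4 probe sets disagreed in direction. The brightest, 1420888_at, was at -0.04 and -0.05 in the Cilia-deleted arrays, against 0.22 and 0.04 in the Control arrays, a difference of -0.17. The dim 1426050_at was at 0.02 and 0.53 in the Cilia-deleted arrays, against -0.02 and -0.08 in the Control arrays, a difference of 0.33. Cilia-deleted 2 alone stood high there, and without Cilia-deleted replicate 2 the difference came to 0.07. With the dimmest class left out, the sign of the gene's difference turned (-0.10).

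Bcl2l2, the gene of Bcl-w (chromosome 14, 54883366 to 54890858), was at -0.15 and 0.17 in the Cilia-deleted arrays, against 0.09 and 0.07 in the Control arrays. The Control arrays lay between the Cilia-deleted arrays, and the difference was -0.07 (SE 0.152, 95% interval -0.44 to 0.31). In each of its 4 probe sets the groups overlapped, with differences from -0.21 to 0.14. Cilia-deleted 2 was above Cilia-deleted 1 in all 4.

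**Figure D3:**
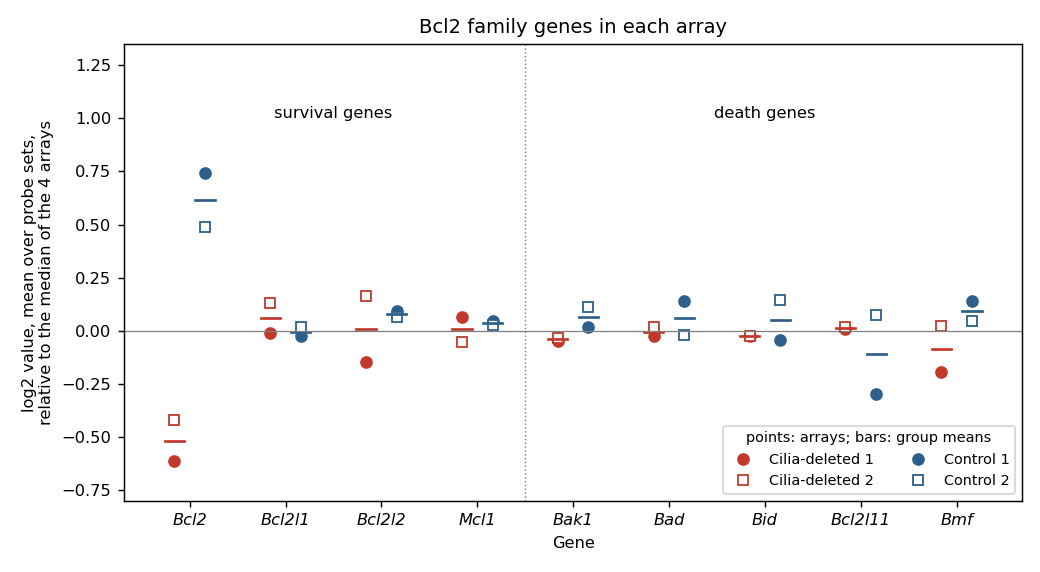
Log2 value of each family gene (x axis, survival genes left and death genes right), as the mean over its probe sets relative to the median of the 4 arrays (y axis), with a point per array and a bar at each group mean. Bcl2 spans -0.61 to 0.74, while every other gene lies between -0.30 and 0.17 in all arrays.

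Of the pore-forming proteins, Bak1 was measured (chromosome 17, 27019812 to 27028627). It was at -0.05 and -0.03 in the Cilia-deleted arrays, against 0.02 and 0.11 in the Control arrays. The groups were apart by a narrow gap, and the difference was -0.11 (SE 0.124, 95% interval -0.41 to 0.20, adjusted p = 0.994), with -0.06 for Bak1 without Control replicate 2. Of its 2 probe sets 1418991_at gave -0.19 with groups apart, and the dim 1425716_s_at gave -0.02 with overlap.

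The 4 BH3-only genes had small differences of both signs, and none passed (limma). Bmf, whose protein binds the dynein light chain and is freed by loss of cell attachment (chromosome 2, 118528757 to 118549686), had the largest gene difference after Bcl2. It was at -0.19 and 0.02 in the Cilia-deleted arrays, against 0.14 and 0.04 in the Control arrays, a difference of -0.18 (SE 0.14, 95% interval -0.52 to 0.17, adjusted p = 0.956). Bmf came to -0.07 without Cilia-deleted replicate 1 and -0.29 without Cilia-deleted replicate 2. Its probe sets disagreed. Probe set 1458325_x_at was at -0.37 and -0.23 in the Cilia-deleted arrays, against 0.23 and 0.24 in the Control arrays, a difference of -0.54 (SE 0.141, unadjusted p = 0.0104, adjusted p = 0.675, limma). Its suffix, as in the brightest Bcl2 probe set, marks probes that may also match other transcripts. Probe set 1422995_at was at -0.11 and -0.08 in the Cilia-deleted arrays, against 0.08 and 0.09 in the Control arrays, a difference of -0.18. In both of these the groups were apart by more than the arrays of a group differed. The third, 1454880_s_at, overlapped, with -0.10 and 0.38 in the Cilia-deleted arrays, against 0.10 and -0.20 in the Control arrays.

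Bcl2l11, the gene of the potent BH3-only protein Bim (chromosome 2, 128126038 to 128162547), had the highest difference of the family. It was at 0.01 and 0.02 in the Cilia-deleted arrays, against -0.30 and 0.07 in the Control arrays, a difference of 0.12 (SE 0.163, 95% interval -0.28 to 0.53). Control 1 alone was low, and without Control replicate 1 the sign turned (-0.06). The same array set the largest of its 5 probe set differences, that of 1456005_a_at (0.38), where Control 1 was at -0.81 and the other arrays between -0.02 and 0.05. Only the dim 1435449_at had groups apart, with 0.08 and 0.03 in the Cilia-deleted arrays, against -0.13 and -0.03 in the Control arrays. Its difference was 0.13.

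Bad, a BH3-only protein that growth factor kinases silence by phosphorylation (chromosome 19, 6941861 to 6951905), was at -0.02 and 0.02 in the Cilia-deleted arrays, against 0.14 and -0.02 in the Control arrays. The difference was -0.06 (SE 0.131, 95% interval -0.39 to 0.26), with -0.10 and -0.03 at its 2 probe sets and overlap in both. Bid, which caspase-8 cleaves to link death receptors to mitochondria (chromosome 6, 120893119 to 120917062), was at -0.03 and -0.02 in the Cilia-deleted arrays, against -0.04 and 0.15 in the Control arrays. The difference was -0.08 (SE 0.133, 95% interval -0.41 to 0.25), and of its 3 probe sets 1 had groups apart, the dim 1447873_x_at (-0.13).

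Within an array, death and survival genes can be set against Bcl2 as differences of their centred values, which are given as a description. Bcl2l11 minus Bcl2 was 0.62 and 0.44 in the Cilia-deleted arrays, against -1.04 and -0.42 in the Control arrays. Mcl1 minus Bcl2 was 0.68 and 0.37 in the Cilia-deleted arrays, against -0.70 and -0.46 in the Control arrays. For the 8 other genes this difference was higher in Cilia-deleted than in Control arrays by 0.96 (Bmf) to 1.26 (Bcl2l11), in which Bcl2's own difference of -1.14 is contained each time. The sign was positive in every Cilia-deleted array and negative in every Control array for all 8.

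Among the 11 other measured genes of the family, 0 passed over all genes in limma, where 0.011% of all genes did, and 2 were lower at an unadjusted p under 0.05, beside 3.68% of all genes. Bnip3, a BH3-like protein of mitophagy induced by low oxygen, was at -0.26 and -0.62 in the Cilia-deleted arrays, against 0.54 and 0.26 in the Control arrays, a difference of -0.84 (SE 0.181, adjusted p = 0.482). Bcl2l12 was at -0.17 and -0.13 in the Cilia-deleted arrays, against 0.20 and 0.16 in the Control arrays, a difference of -0.33 (SE 0.122). Bok, a pore-forming relative of Bax and Bak, had a difference of -0.17, and -0.11 without Control replicate 2. These 3 were named as the largest differences with groups apart. Of the 11 genes, 4 were apart and lower and 0 apart and higher, beside 18.6% and 14.7% of all genes. The list's median was -0.04, beside -0.01 for all genes. The p53-induced BH3-only genes Bbc3 and Pmaip1 were at -0.04 and -0.08, with groups that overlapped.

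Partners and regulators of the family held members of both directions. Of 25 measured genes 0 passed and 1 was higher at an unadjusted p under 0.05, beside 2.29% of all genes. Groups were apart and lower for 6 and apart and higher for 5, beside 18.6% and 14.7% of all genes, and the median was 0.00. Mapk8, the stress kinase JNK1 that acts on Bim and Bmf, was at 0.14 and 0.31 in the Cilia-deleted arrays, against -0.03 and -0.25 in the Control arrays, a difference of 0.36 (SE 0.146, adjusted p = 0.830). For Mapk8 the median over probe sets gave 0.20, and the probe sets of the brightest class gave 0.80. Foxo3, a transcription factor that induces Bim, had a difference of 0.32 with Cilia-deleted 2 standing high (0.41), and came to 0.12 without Cilia-deleted replicate 2. Bag1, a Bcl2-binding co-chaperone, had a difference of -0.47, set mostly by Cilia-deleted 2 (-0.57), and came to -0.22 without Cilia-deleted replicate 2.

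No gene downstream of the mitochondrial step passed (limma). Of 16 caspase and apoptosome genes 13 lay below 0 (median -0.11), beside 9435 of all 18193 genes. Of these 16, 4 were apart and lower and 0 apart and higher, beside 18.6% and 14.7% of all genes, and 1 was lower at an unadjusted p under 0.05, beside 3.68%. Cycs, cytochrome c, was at -0.07 and -0.19 in the Cilia-deleted arrays, against 0.19 and 0.15 in the Control arrays, a difference of -0.30 (SE 0.128). Endog, the mitochondrial endonuclease G, had a difference of -0.54, with Control 1 at 0.66, and came to -0.27 without Control replicate 1. Aifm1, the apoptosis-inducing factor, had a difference of -0.15. The list's median by array was -0.06 and -0.02 in the Cilia-deleted arrays, against 0.15 and -0.0043 in the Control arrays, so that Control 1 alone stood high. Of 10 inhibitors of caspases 8 lay below 0 (median -0.13) and 0 had an unadjusted p under 0.05. The largest difference, that of Birc5 (-0.27), came with overlap. Groups were apart and lower for 3 and apart and higher for 1, Cflar (0.14), beside 18.6% and 14.7% of all genes. The 3 lower were Birc2 (-0.26), Birc3 (-0.23) and Naip2 (-0.17). Single arrays set much of these 3, with Birc2 at -0.11 without Cilia-deleted replicate 2, Birc3 at -0.09 without Control replicate 2 and Naip2 at -0.05 without Control replicate 1.

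Death receptors and adaptors had a median of 0.05 with 10 of 15 above 0, beside 8758 of all 18193 genes. Of these 15, 3 were apart and lower and 0 apart and higher, beside 18.6% and 14.7% of all genes. Traf2, an adaptor of tumour necrosis factor receptors, had a difference of -0.55 (SE 0.167), the necroptosis kinase Ripk3 -0.42 and Tradd -0.13 (-0.07 without Control replicate 1), and 2 of the list were lower at an unadjusted p under 0.05, beside 3.68% of all genes. In the list of p53 and its targets 17 genes were measured, and Trp53, the gene of p53 itself, was not. Of these 17, 3 were lower at an unadjusted p under 0.05, beside the same 3.68%, and the median was -0.05. The 3 were Cdkn1a, Perp and Sesn1. Groups were apart and lower for 5 of the 17 and apart and higher for 1, Mdm2 (0.19), beside 18.6% and 14.7% of all genes. Cdkn1a, the cell cycle inhibitor p21, had a difference of -0.61 and was at -0.32 without Cilia-deleted replicate 2. Perp, a p53 target of cell adhesion and apoptosis, had -0.58 (SE 0.183), and Sesn1, a stress-induced p53 target named after its values were seen, had -0.34 (unadjusted p = 0.0315) with groups apart, and -0.22 without the x and s probe sets. Zmat3 had -0.44 (unadjusted p = 0.0718), with -0.18 without Control replicate 1. No gene of either list passed over all genes (limma), and 5 genes of the p53 list also stand in other lists given here.

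**Figure D4:**
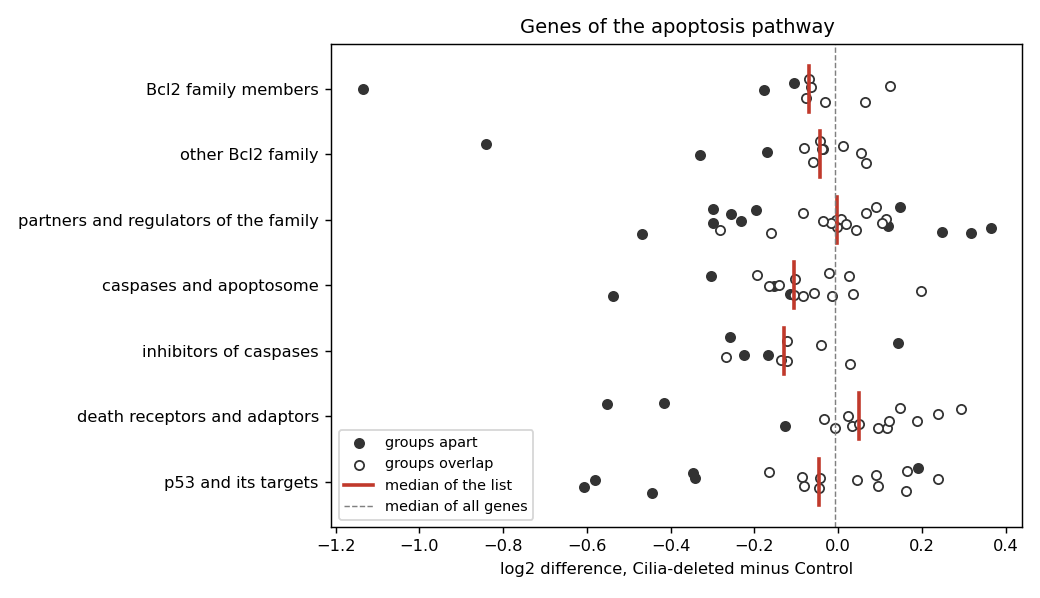
Log2 difference (x axis, Cilia-deleted minus Control) of each measured gene of the family and of 6 related lists, with filled points where the groups are apart, a red bar at the list median and a dashed line at the median of all genes. Bcl2 at -1.14 lies farthest to the left, followed by Bnip3 at -0.84, and the list medians lie between -0.13 and 0.05.

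By Euclidean distance over the 4 arrays, the genes with values most like those of Bcl2 were Calml4 (distance 0.134), Slc24a3 (0.135), Kcne4 (0.203), Gpc3 (0.227) and Tnnc2 (0.236). Their differences were -1.03, -1.06, -0.96, -1.04 and -1.08. Tnnc2 is fast skeletal troponin C. All 7 skeletal muscle markers lay below 0, beside 9435 of all 18193 genes, and 3 were apart and lower, beside 18.6%. The 3 were Tnni2 (-1.96, adjusted p = 0.0673, limma), Mylpf (-1.05) and Myh3 (-0.23), and the other 4 overlapped. The median of the 7 was -0.02 and -0.12 in the Cilia-deleted arrays, against 0.19 and 0.38 in the Control arrays. The part of the muscle markers in the Bcl2 value was not tested. The 4 measured osteoblast markers also lay below 0, and 2 were apart and lower, Dmp1 (-0.72) and Sp7 (-0.54), beside the same 18.6%. All 10 myeloid and osteoclast markers, all 4 erythroid markers and all 5 endothelial markers overlapped. Some of them differed widely between arrays of a group. The median of the 10 was -0.16 and 0.13 in the Cilia-deleted arrays, against -0.33 and 0.74 in the Control arrays. Acp5 was at -2.20 and 0.65 in the Cilia-deleted arrays, against -0.65 and 1.84 in the Control arrays. Of the 6 B lymphoid markers 5 lay above 0, and 2 were apart and higher, Igll1 (0.21) and Ms4a1 (0.17), beside 14.7% of all genes. The sixth, Vpreb1, was at -0.45 with groups apart (unadjusted p = 0.0327), and at -0.27 without Control replicate 1. Of the 8 chondrocyte markers 6 lay above 0, and 2 were apart and higher, beside 14.7% of all genes. The cartilage matrix genes Comp and Hapln1 were lower with groups apart. Comp had a difference of -0.54 (unadjusted p = 0.0236), and -0.32 without Cilia-deleted replicate 2. Hapln1 had a difference of -0.23, and -0.15 without Control replicate 1. The part of these markers in the family's values was not tested. For Bmf the nearest genes were Ptcd1, Mbd4, Sorl1, Ift140 and Glb1l3, at distances of 0.0459 to 0.0536.

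The Hedgehog readouts Gli1 and Ptch1 had lower values in the same arrays as Bcl2. Gli1, which the pathway induces, was at -1.34 and -1.11 in the Cilia-deleted arrays, against 1.69 and 1.11 in the Control arrays. Ptch1, the Hedgehog receptor, was at -0.79 and -0.74 in the Cilia-deleted arrays, against 0.97 and 0.74 in the Control arrays. Pth1r, the receptor of parathyroid hormone-related protein, had a difference of 0.40 (SE 0.185) with groups apart, and 0.22 without Control replicate 1 or 0.23 without Cilia-deleted replicate 1, while Ihh (0.17) and Col10a1 (0.13), the ligand of the growth plate and the collagen of hypertrophic cells, overlapped. Each of these compares the same 4 arrays, so their agreement with Bcl2 is no separate evidence.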

How the data were processed

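The members and gene lists were chosen with earlier results of these data known. The deposited values are log2 values from Affymetrix arrays, made with RMA per the submitters' processing notes, with no version given. In the deposited table the median of every probe set over the 4 arrays is 0 (largest departure 5e-07). The log base was inferred from the number steps of the values. Per the labels' protocols, 50 ng of RNA from tissue cut with a needle from 40 µm sections was amplified in a 2-cycle protocol. By the platform annotation 34945 probe sets name 1 gene, 932 several and 9160 none, and 64 control probe sets were left out. Of the 34945, 34741 took their symbol from the RefSeq table of GRCm38.p6.

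Cilia-deleted and Control arrays were compared in limma 3.58.1 (R 4.3.3) with lmFit and eBayes without a trend, once over probe sets and once over gene means. Benjamini-Hochberg adjustment ran over the whole table. Beside 2 residual degrees of freedom, the prior gave 3.46 for probe sets and 3.83 for genes. With 2 arrays a group, the number of arrays limits the precision. The fit was tested on simulated data. All member probe sets are given, and of each related list the genes past the threshold or else the 3 largest differences with groups apart. Brightness classes used a tolerance of 0.1 of a step. Alternatives were another normalization, centring, moderation, threshold, brightness filter, summary of probe sets, a replicate block and leaving out each array. Promoters are RefSeq sequences (GRCm38.p6).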

Additional observations from a re-analysis of the deposited data

How the results depend on the processing

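Bcl2 was lower in Cilia-deleted arrays under all 15 alternatives, from -1.60 to -1.01 (adjusted p from 0.038 to 1 over the alternatives), and leaving out 1 array gave -1.26 to -1.01. Changes of moderation or threshold, the test against a log2 difference of 0.5 and the replicate block cannot alter the difference itself. Since the groups were apart at each Bcl2 probe set, leaving out an array or choosing among probe sets cannot turn its sign. With the brightest class only, which keeps 1 of its probe sets and fewer genes, 1 member gene passed, Bcl2 (-1.60, adjusted p = 0.038), against 0 in the reported fit, and at a threshold of 0.1 1 member probe set passed, 1443837_x_at. Of the related lists 0 genes passed under any alternative. Over all probe sets 20 passed, with 2 without moderation, 11 against a log2 difference of 0.5, 5 with the brightest class, 5 with the replicate block and 9 to 12 without 1 array. Over all genes 2 passed, with 14 after renewed quantile normalization, 1 without moderation, 11 at the threshold of 0.1, 4 without the dimmest class, 6 with the brightest class, 1 with the replicate block and 2 to 56 without 1 array (56 without Cilia-deleted replicate 1 and 38 without Cilia-deleted replicate 2). The replicate numbers only name the samples. Deviations of same-numbered arrays correlated at 0.102. The replicate block is balanced, so it cannot change the Bcl2 difference of -1.14. With the block the adjusted p of Bcl2 was 0.463 (limma), and 0 members passed.

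Small differences changed sign, and the cause was not tested. Bcl2l1 was at -0.10 with the dimmest class left out and -0.17 with the brightest class, Mcl1 at 0.02 with the median over probe sets, and 1417045_at and 1456006_at at -0.01 and -0.08 after renewed quantile normalization. Leaving out 1 array turned the sign of 6 of 9 genes and 20 of 34 probe sets in at least 1 fit, in which the lone array of a group is assumed to vary like those of the other. The genes were Bad (-0.15 to 0.02), Bcl2l1 (-0.01 to 0.13), Bcl2l11 (-0.06 to 0.31), Bcl2l2 (-0.23 to 0.09), Bid (-0.17 to 0.02) and Mcl1 (-0.09 to 0.03), and outside the family Col10a1 (-0.46 to 0.72) and Ihh (-0.35 to 0.68). The probe sets of Bad were 1416582_a_at (-0.07 to 0.01) and 1416583_at (-0.23 to 0.02). Those of Mcl1 were 1416880_at (0 to 0.05), 1437527_x_at (-0.08 to 0), 1456243_x_at (-0.12 to 0.02) and 1456381_x_at (-0.03 to 0.08). Those of Bid were 1417045_at (-0.14 to 0.15) and 1448560_at (-0.28 to 0.06), and of Bcl2l1 1420887_a_at (-0.01 to 0.25) and 1426191_a_at (-0.08 to 0.05). Those of Bcl2l2 were 1423572_at (-0.47 to 0.06), 1430453_a_at (-0.36 to 0.20), 1430454_x_at (-0.28 to 0) and 1451029_at (-0.11 to 0.40). Those of Bcl2l11 were 1426334_a_at (-0.14 to 0.03), 1435448_at (-0.05 to 0.31), 1456005_a_at (-0.05 to 0.81) and 1456006_at (-0.32 to 0.39), with 1425716_s_at of Bak1 (-0.07 to 0.03) and 1454880_s_at of Bmf (-0.06 to 0.43).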
